A study of Mus musculus with 8 samples.

Results

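The genes described here are 42 genes of the interferon response and of class I antigen presentation, taken by symbol from the 24982 genes of the deposited count table of a mouse tendon cell study. Each of the 42 symbols was present in the table. The study asked which mRNAs differ between tendon cells without and with Scx, the gene of scleraxis, a transcription factor of tendon cells. RNA was sequenced from fibroblasts grown in culture from C57Bl/6 tail tendon. The ScxKO group (genotype Scx- in the labels) holds the 4 libraries 2, 3, 4 and 5, and the ScxWT group (genotype Scx+) the 4 libraries 2, 3, 5 and 6. Both groups had been given 4HT (4-hydroxytamoxifen, a ligand widely used to switch on inducible Cre recombinases). The sources used here name neither the Scx allele nor a Cre driver, nor the age of the animals. They also leave unsaid which libraries share an animal or culture, so a p-value speaks only to the spread among these 8 libraries, and that spread may be technical.

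Type I interferons are secreted when a cell senses foreign nucleic acid. They bind the receptor IFNAR, whose kinases JAK1 and TYK2 activate a complex that holds STAT2 and IRF9, and this complex binds the interferon-stimulated response element (ISRE) in the promoters of interferon-stimulated genes. Interferon gamma acts through its own receptor and at a different DNA element, the gamma-activated site (GAS). Class I molecules show peptides cut by the proteasome and carried by the TAP transporter to T cells, and most nucleated cells, fibroblasts included, express this machinery at rest and raise it under interferon.

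Sequencing depth ran between 17343228 and 25180790 gene counts per library, and 13125 genes had enough counts to be tested. Scx had 3, 1, 2 and 3 counts in ScxKO 2, 3, 4 and 5, against 177, 132, 252 and 156 counts in ScxWT 2, 3, 5 and 6. Of 10 tested tendon fibroblast markers, 8 were lower in ScxKO, beside 14.5% of all tested genes, Col1a1, Col3a1 and Tnmd among them. All 11 listed markers had counts in every library. In a principal component analysis of all tested genes ScxWT 5 stood apart from the other ScxWT libraries, and over the interferon genes ScxKO 3 stood apart from the other ScxKO libraries. Counts of calls are therefore given with and without each of the pair.

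Of the 42 genes, 40 passed the filter on low counts, and 37 had at least 10 counts in every library. In ScxKO against ScxWT, 13 of the 40 (32.5%) were higher and 3 (7.50%) were lower by edgeR's quasi-likelihood test at a Benjamini-Hochberg adjusted p under 0.05 over all genes tested. Of all tested genes, 14% were called higher and 14.5% lower, so that 28.5% were called in either direction. The share of called genes was thus above the background for rises and below it for falls, and no test was made over the list. The genes of the list were chosen with earlier results of these data known, which limits this comparison. The other 24 genes were not called, and 20 of them had a log2 change within 0.25 of 0. A p that misses the threshold does not show that the groups were alike. The median log2 change was 0.01 over the 40 genes and -0.01 over all tested genes. ScxKO and ScxWT did not overlap for 8 genes that were higher in ScxKO, against a background of 14.8%, and for 2 that were lower, against a background of 14.3%. Without ScxKO 3 there were 10 calls higher and 2 lower, beside backgrounds of 12.1% and 12%. Without ScxWT 5 there were 14 higher and 4 lower, beside backgrounds of 18.3% and 17.5%. In bulk RNA a change in the number of expressing cells and a change in RNA per cell cannot be told apart.

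**Figure D1:**
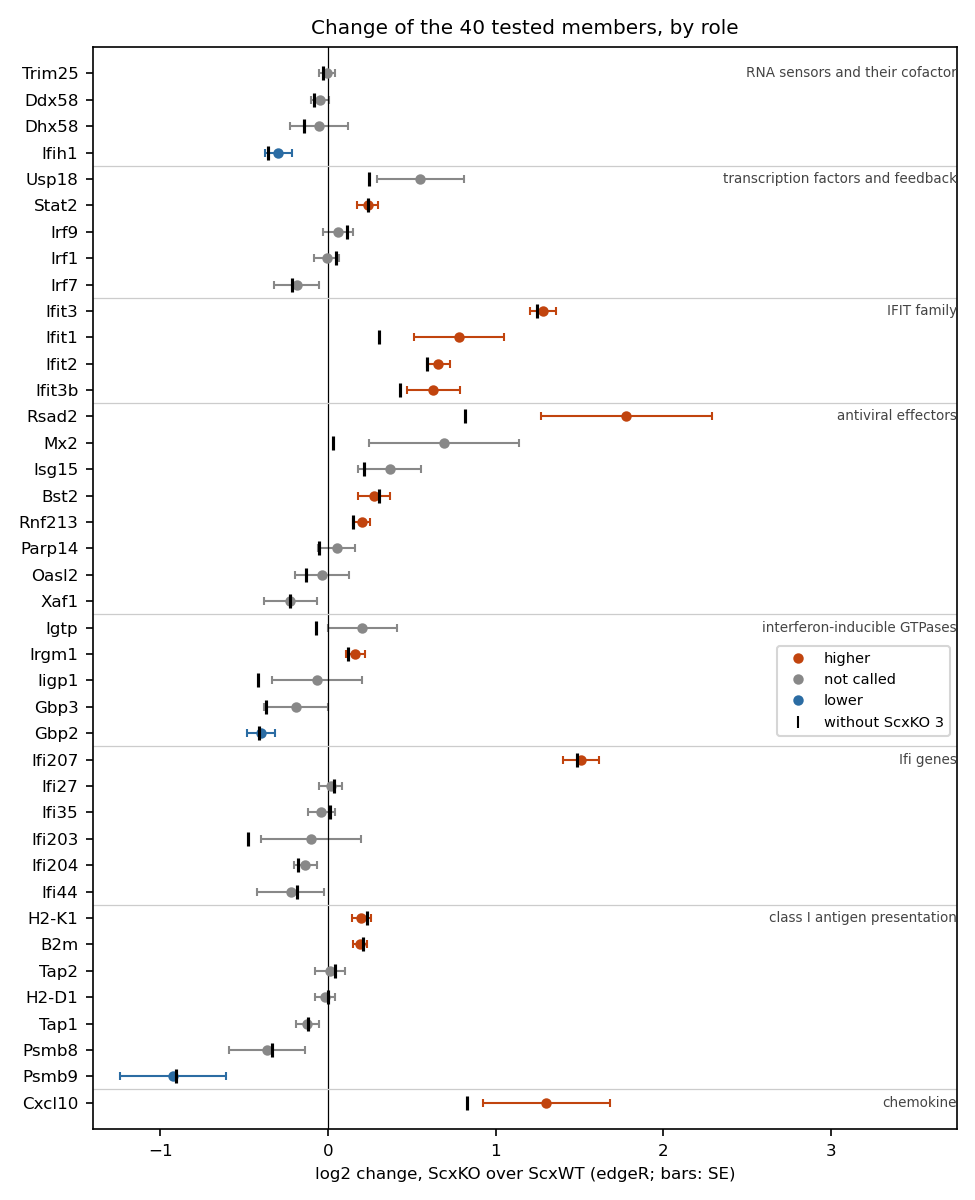
Log2 change of ScxKO over ScxWT for the 40 tested genes, grouped by role, with standard errors as bars and the value without ScxKO 3 as a black tick. Colours mark genes that were higher, lower or not called at an adjusted p under 0.05. Ifit3 and Ifi207 keep their place without ScxKO 3, while the ticks of Rsad2, Ifit1, Mx2 and Cxcl10 lie well to the left of their points.

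The IFIT genes gave the plainest rise. They encode proteins with tetratricopeptide repeats, and some of these proteins bind viral or foreign RNA and hold back its translation. All 4 family members in the list were called higher in ScxKO, by log2 changes of 0.63 to 1.28, beside 14% of all tested genes. Their summed level lay between 231 and 293 CPM in ScxKO libraries, against 125 to 146 CPM in ScxWT libraries. CPM are counts scaled to the size of the library.

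Ifit3 measured 112, 132, 113 and 134 CPM in ScxKO 2, 3, 4 and 5, against 51.2, 53.2, 55.2 and 42.5 CPM in ScxWT 2, 3, 5 and 6. Every ScxKO library thus lay far above every ScxWT library. The mean was 123 ± 11.8 CPM in ScxKO and 50.5 ± 5.59 CPM in ScxWT (SD, n = 4 each), a 2.43-fold difference. The log2 change was 1.28 ± 0.08 (SE, edgeR adjusted p 2.14e-08) and 1.25 without ScxKO 3.

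Ifit2 measured 104, 129, 109 and 110 CPM in ScxKO 2, 3, 4 and 5, against 74.0, 78.2, 63.4 and 70.9 CPM in ScxWT 2, 3, 5 and 6. All ScxKO libraries again lay above all ScxWT libraries, with ScxKO 3 the highest. This gave a log2 change of 0.66 ± 0.07 (SE, edgeR adjusted p 4.39e-06) and 0.59 without ScxKO 3.

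Ifit3b was expressed at a far lower level, with 5.57, 9.45, 6.73 and 5.67 CPM in ScxKO 2, 3, 4 and 5, against 3.85, 4.60, 4.75 and 4.54 CPM in ScxWT 2, 3, 5 and 6. The groups did not overlap, although ScxKO 3 alone set much of the ScxKO spread. On the log2 scale the change was 0.63 ± 0.16 (SE, edgeR adjusted p 0.00669), and it was 0.43 with an adjusted p of 0.0193 without ScxKO 3.

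Ifit3 and Ifit3b are near copies. Their transcripts were 98.0% identical over 1697 aligned bases, and 51.2% of all 50-base words of Ifit3 also occur in Ifit3b, so that reads of one can be given to the other and the split between them is uncertain. Their sum is not affected by such a split. It was 117.4, 141.2, 120.1 and 139.7 CPM in ScxKO 2, 3, 4 and 5, against 55.03, 57.79, 59.97 and 47.06 CPM in ScxWT 2, 3, 5 and 6. The groups lay far apart at 2.36-fold. The two-sided exact permutation p was 0.0286, the smallest that 4 against 4 libraries can give. Both genes alone already separated the groups, so this p was fixed in advance and adds no support.

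The call of Ifit1 depended on single libraries and on the test. Its level was 9.72, 23.1, 8.24 and 9.36 CPM in ScxKO 2, 3, 4 and 5, against 6.84, 10.01, 6.40 and 6.60 CPM in ScxWT 2, 3, 5 and 6. ScxKO 3 lay far above all other libraries, and ScxWT 3 was above ScxKO 2, 4 and 5, so the groups overlapped. With all libraries the log2 change was 0.78 ± 0.27 (SE, edgeR adjusted p 0.0397), and without ScxKO 3 it was 0.31 with an adjusted p of 0.134. The call was also lost without ScxWT 2 (adjusted p 0.0929) and without ScxWT 6 (adjusted p 0.0969). With all 8 libraries the adjusted p was 0.142 by DESeq2 and 0.0599 by limma-voom.

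The 4 genes lie next to each other on the plus strand of chromosome 19 (GRCm38): Ifit2 at 34550694 to 34576419, Ifit3 at 34583531 to 34588731, Ifit3b at 34607970 to 34613401 and Ifit1 at 34640871 to 34650009. A pair of IFIT genes on the minus strand lies between them. Ifit1bl1 had a log2 change of 0.02 and Ifit1bl2 of 0.37, and neither was called (edgeR adjusted p 0.921 and 0.201). The 4 plus-strand genes were thus called and this interleaved pair was not, beside 28.5% of all tested genes called in either direction. The call of Ifit1 depended on single libraries and on the test. Ifit1bl1 and Ifit1bl2 had at most 53 and 25 counts in any library, so their missing calls do not show that a rise was absent.

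The promoters of 3 of the 4 genes are shown because they carry the ISRE core, searched as the letters GAAANNGAAA on both strands, where it reads TTTCNNTTTC on the printed strand. Each stretch is 70 bases of RefSeq sequence (GRCm38.p6, plus strand), with motif letters in capitals. Those of Ifit3 (chr19:34583360-34583429), Ifit3b (chr19:34607756-34607825) and Ifit1 (chr19:34640764-34640833) each hold the core 2 times, and the Ifit3 and Ifit3b stretches are the same letter for letter.
Ifit3: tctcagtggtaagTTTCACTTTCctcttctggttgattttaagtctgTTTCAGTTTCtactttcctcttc
Ifit3b: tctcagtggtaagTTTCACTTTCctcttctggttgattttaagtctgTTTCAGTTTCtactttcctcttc
Ifit1: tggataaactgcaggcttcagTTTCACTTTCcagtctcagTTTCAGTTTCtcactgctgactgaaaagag
The first core begins at position -156 in Ifit3, -188 in Ifit3b and -104 in Ifit1, counted from the RefSeq transcript start at 0. The letters of the core were not in the window searched for Ifit2, which ran from 250 bases before to 50 bases after the start.

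**Figure D2:**
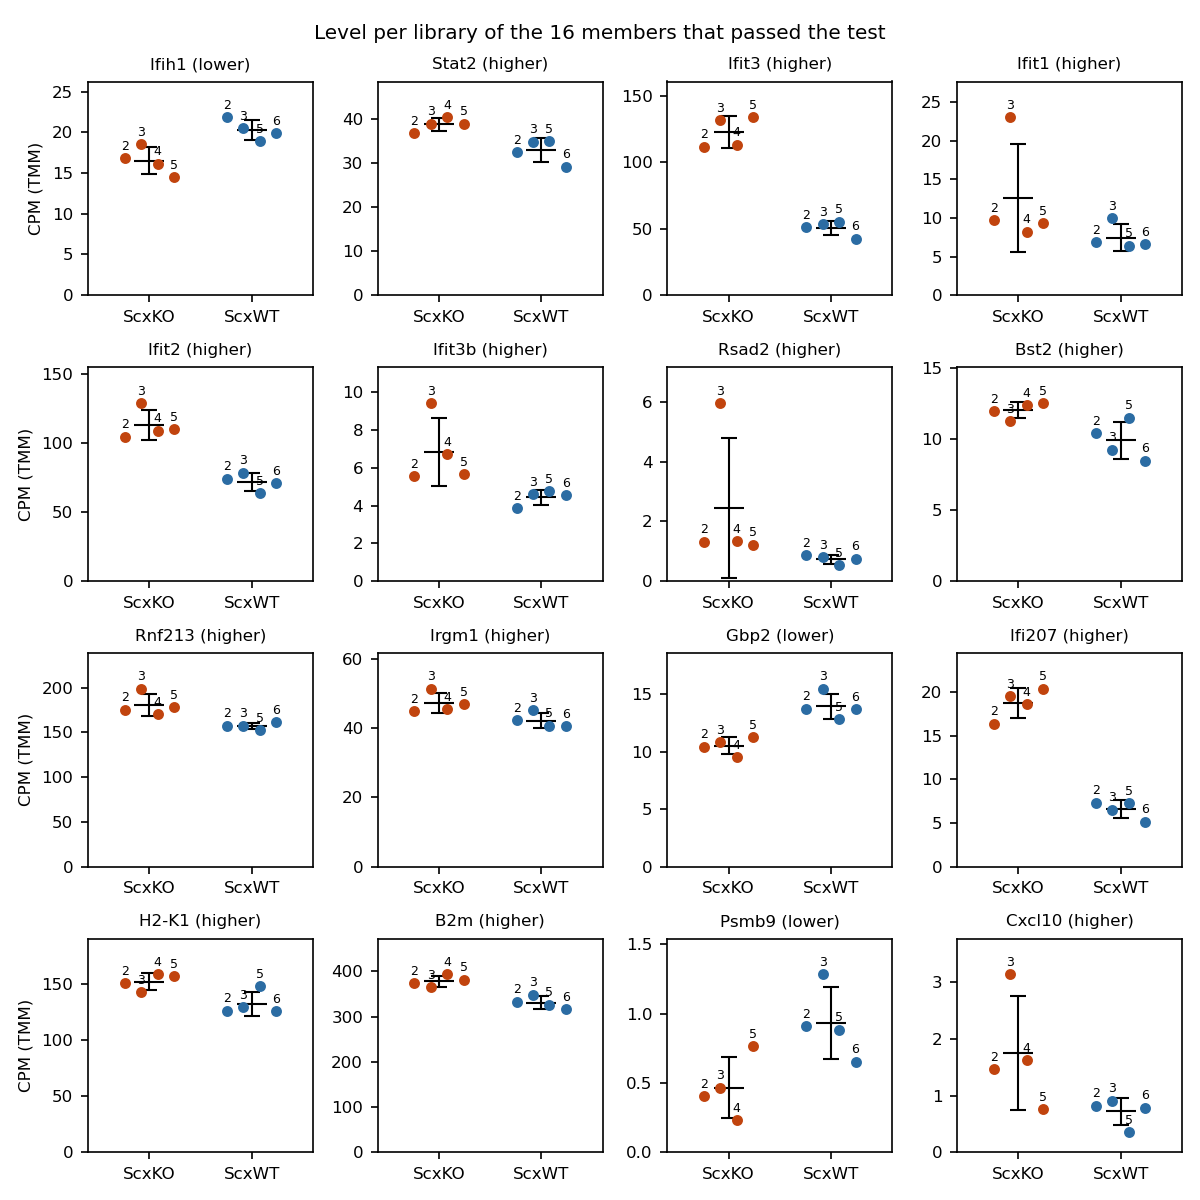
CPM of the 16 called genes in each library, with numbered points for libraries, long bars for the group mean and short bars for 1 SD (n = 4 each), ScxKO in orange and ScxWT in blue. Ifit3, Ifit2 and Ifi207 separate the groups clearly, and in Ifit1, Rsad2 and Cxcl10 the point of ScxKO 3 stands above the others.

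The Ifi genes shared no direction. Ifi203, Ifi204 and Ifi207 belong to the Ifi200 family of nucleic acid binding proteins. Only Ifi207 of the 6 Ifi genes tested was called (16.7%), beside 28.5% of all tested genes called in either direction. Ifi207 measured 16.4, 19.5, 18.6 and 20.4 CPM in ScxKO 2, 3, 4 and 5, against 7.32, 6.53, 7.28 and 5.16 CPM in ScxWT 2, 3, 5 and 6. Each ScxKO library lay far above every ScxWT library. At means of 18.7 ± 1.73 and 6.57 ± 1.01 CPM (SD, n = 4 each) in ScxKO and ScxWT, the ratio was 2.85, the largest among genes of the list whose call held in every alternative tried. The log2 change was 1.51 ± 0.11 (SE, edgeR adjusted p 8.84e-08) and 1.49 without ScxKO 3.

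Ifi207 lies on the minus strand of chromosome 1 at 173723427 to 173741747 (GRCm38), within a cluster of its family. None of its tested neighbours was called. Ifi204 averaged 29.8 ± 1.93 CPM in ScxKO and 32.9 ± 2.90 CPM in ScxWT (SD, n = 4 each), with a log2 change of -0.14 (edgeR adjusted p 0.157, and 0.0488 without ScxWT 5). Ifi203 had a log2 change of -0.10, and -0.48 without ScxKO 3, called in neither fit. The other family genes of the locus that were tested, Ifi209, Mndal and Ifi211, had log2 changes of 0.32, -0.11 and -0.08 and were not called either. Of the 50-base words of Ifi207, 7.39% occur in other genes, against 30.2% for Ifi204 and 10.7% for Ifi203.

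The promoters of Ifi207 and Ifi203 are printed side by side because each holds the same core letters close to the start, while Ifi207 was called and Ifi203 was not. The stretches are chr1:173741811-173741880 and chr1:173942493-173942562 (GRCm38.p6, minus strand), with the ISRE core in capitals.
Ifi207: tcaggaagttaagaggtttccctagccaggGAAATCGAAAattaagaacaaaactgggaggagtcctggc
Ifi203: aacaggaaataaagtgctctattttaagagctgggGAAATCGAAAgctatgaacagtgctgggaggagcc
The core begins at position -41 in Ifi207 and at -35 in Ifi203.

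Ifi27, Ifi35 and Ifi44 carry interferon-inducible names and were not called. Ifi27, among the most abundant genes of the list, averaged 103 ± 5.21 CPM in ScxKO and 102 ± 11.2 CPM in ScxWT (SD, n = 4 each). Ifi35 and Ifi44 had log2 changes of -0.04 and -0.22.

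Among the antiviral effectors 3 of the 8 tested genes rose and none fell, beside 14% and 14.5% of all tested genes. The call of Bst2, among the 3, was lost in 11 of 21 alternatives. Rsad2, which encodes viperin, an enzyme that makes a chain-terminating nucleotide against viral polymerases, had the largest log2 change of the list. It had 26, 128, 23 and 27 counts in ScxKO 2, 3, 4 and 5, against 20, 15, 13 and 17 counts in ScxWT 2, 3, 5 and 6. Those are 1.32, 5.99, 1.34 and 1.21 CPM in ScxKO 2, 3, 4 and 5, against 0.866, 0.803, 0.523 and 0.743 CPM in ScxWT 2, 3, 5 and 6. All ScxKO libraries lay above all ScxWT libraries, with ScxKO 3 at 4.65 times the mean of the other 3 ScxKO libraries. The log2 change of 1.78 ± 0.51 (SE, edgeR adjusted p 0.0161) was 0.82 with an adjusted p of 0.0200 without ScxKO 3.

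Rnf213, a giant ubiquitin ligase that acts on intracellular pathogens, had 175, 199, 170 and 178 CPM in ScxKO 2, 3, 4 and 5, against 157, 158, 153 and 162 CPM in ScxWT 2, 3, 5 and 6. The groups did not overlap, at a small log2 change of 0.20 ± 0.05 (SE, edgeR adjusted p 0.00542). Its exons overlap those of a gene on the opposite strand, A930037H05Rik, over 1476 bases.

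Bst2 encodes tetherin, which holds budding virus particles at the cell surface. It had 11.9, 11.3, 12.4 and 12.5 CPM in ScxKO 2, 3, 4 and 5, against 10.4, 9.26, 11.5 and 8.48 CPM in ScxWT 2, 3, 5 and 6. The groups overlapped through ScxWT 5, and the log2 change was 0.27 ± 0.09 (SE, edgeR adjusted p 0.0399). The call was lost without ScxKO 2, ScxKO 4, ScxKO 5, ScxWT 2, ScxWT 3 or ScxWT 6, at adjusted p-values of 0.0698, 0.0925, 0.104, 0.0572, 0.0870 and 0.117.

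The other antiviral effectors of the list were not called or not tested. Isg15, a ubiquitin-like protein that is attached to other proteins, had 3.90, 4.82, 2.26 and 3.82 CPM in ScxKO 2, 3, 4 and 5, against 2.47, 3.59, 3.02 and 2.62 CPM in ScxWT 2, 3, 5 and 6. The groups overlapped, with a log2 change of 0.37 ± 0.19 (SE, edgeR adjusted p 0.160, and 0.0240 without ScxKO 4). Mx2, a dynamin-like GTPase, had 0.354, 1.96, 0.348 and 1.03 CPM in ScxKO 2, 3, 4 and 5, against 0.736, 0.589, 0.604 and 0.437 CPM in ScxWT 2, 3, 5 and 6. Its log2 change of 0.69 (edgeR adjusted p 0.270) was 0.03 without ScxKO 3, and ScxKO 2 and 4 were below every ScxWT library while ScxKO 3 and 5 were above. Oasl2 of the oligoadenylate synthetase family, the ADP-ribosyltransferase Parp14 and the apoptosis factor Xaf1 had log2 changes of -0.04, 0.05 and -0.22. Mx1 and Oas1a did not pass the filter on low counts. Mx1 had 3, 15, 2 and 6 counts in ScxKO 2, 3, 4 and 5, against 6, 6, 4 and 3 in ScxWT 2, 3, 5 and 6. Oas1a had at most 3 counts in ScxKO and at most 6 in ScxWT libraries.

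Of the 5 tested GTPases induced by interferon 1 was called higher and 1 lower, beside 14% and 14.5% of all tested genes. Gbp2, a guanylate-binding protein that coats the vacuoles of intracellular pathogens, fell in ScxKO. It had 10.4, 10.8, 9.52 and 11.2 CPM in ScxKO 2, 3, 4 and 5, against 13.7, 15.5, 12.8 and 13.7 CPM in ScxWT 2, 3, 5 and 6. Every ScxKO library was below every ScxWT library. Its log2 change was -0.40 ± 0.08 (SE, edgeR adjusted p 0.00186) and -0.41 without ScxKO 3.

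Irgm1, an immunity-related GTPase that works in autophagy, had 45.0, 51.5, 45.6 and 46.9 CPM in ScxKO 2, 3, 4 and 5, against 42.4, 45.2, 40.7 and 40.5 CPM in ScxWT 2, 3, 5 and 6. The groups overlapped, with ScxKO 2 just below ScxWT 3, and the log2 change was 0.16 ± 0.06 (SE, edgeR adjusted p 0.0382). The call was lost without ScxKO 3, ScxKO 4, ScxKO 5, ScxWT 2 or ScxWT 6, at adjusted p-values of 0.141, 0.0518, 0.0759, 0.0775 and 0.0964. Both Bst2 and Irgm1 also lost their calls under upper-quartile scaling.

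Gbp3, of the family of Gbp2, and the immunity-related GTPases Iigp1 and Igtp were not called with or without ScxKO 3. Their log2 changes were -0.19, -0.07 and 0.20 with that library and -0.37, -0.41 and -0.07 without it.

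Of the 4 RNA sensor and cofactor genes none was called higher and 1 was lower, beside 14% and 14.5% of all tested genes. Ifih1, which encodes MDA5, a helicase that detects long double-stranded RNA, had 16.9, 18.6, 16.1 and 14.5 CPM in ScxKO 2, 3, 4 and 5, against 21.9, 20.5, 18.9 and 19.9 CPM in ScxWT 2, 3, 5 and 6. All ScxKO libraries were below all ScxWT libraries, by a narrow margin at ScxKO 3 and ScxWT 5. Ifih1 had a log2 change of -0.30 ± 0.08 (SE, edgeR adjusted p 0.0109), and the adjusted p was 0.0523 without ScxKO 5. Ddx58, the gene of the sensor RIG-I, averaged 59.7 ± 3.62 CPM in ScxKO and 61.8 ± 3.68 CPM in ScxWT (SD, n = 4 each). Dhx58, the gene of the related helicase LGP2, had a log2 change of -0.05, and Trim25, the ubiquitin ligase that activates RIG-I, of -0.01. None of these 3 was called.

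Of the transcription factors and feedback genes 1 of 5 was called, beside 28.5% of all tested genes, so the group did not stand above the background. Stat2, a subunit of the factor that type I interferon activates, had 36.9, 39.1, 40.5 and 39.0 CPM in ScxKO 2, 3, 4 and 5, against 32.6, 34.9, 35.1 and 29.2 CPM in ScxWT 2, 3, 5 and 6. The groups did not overlap, with a log2 change of 0.24 ± 0.06 (SE, edgeR adjusted p 0.00893), the same to that precision without ScxKO 3. With only the libraries numbered 2, 3 and 5 the call was lost, at an edgeR adjusted p of 0.0852, and of 0.0740 with the replicate block. Irf9, which gives that factor its DNA binding, averaged 14.5 ± 1.06 CPM in ScxKO and 13.98 ± 1.75 CPM in ScxWT (SD, n = 4 each). Irf1, a factor induced by interferon gamma, averaged 19.6 ± 1.68 CPM in ScxKO and 19.7 ± 1.21 CPM in ScxWT. Irf7, which amplifies type I interferon production, averaged 5.13 ± 0.715 CPM in ScxKO and 5.85 ± 0.987 CPM in ScxWT. Their log2 changes of 0.06, -0.01 and -0.19 were not called.

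Usp18 removes ISG15 from proteins and damps the receptor. It had 2.18, 3.93, 2.26 and 1.75 CPM in ScxKO 2, 3, 4 and 5, against 1.52, 2.68, 1.49 and 1.40 CPM in ScxWT 2, 3, 5 and 6. The library numbered 3 was the highest in each group. The log2 change of 0.55 ± 0.26 (SE) was not called, with an edgeR adjusted p of 0.127, and of 0.0318 without ScxWT 3.

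In class I antigen presentation 2 of the 7 tested genes rose slightly, B2m and H2-K1, and 1 fell, Psmb9, beside 14% and 14.5% of all tested genes. B2m, the light chain shared by all class I molecules, had 374, 365, 393 and 382 CPM in ScxKO 2, 3, 4 and 5, against 333, 349, 326 and 316 CPM in ScxWT 2, 3, 5 and 6. The groups did not overlap, and the log2 change was 0.19 ± 0.04 (SE, edgeR adjusted p 0.00257).

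H2-K1, a classical class I heavy chain, had 150, 142, 158 and 157 CPM in ScxKO 2, 3, 4 and 5, against 126, 129, 147 and 125 CPM in ScxWT 2, 3, 5 and 6. ScxWT 5 lay above ScxKO 3, so the groups overlapped. The log2 change was 0.20 ± 0.05 (SE, edgeR adjusted p 0.0121). H2-D1, the other classical heavy chain of the list, averaged 62.8 ± 3.84 CPM in ScxKO and 63.5 ± 4.81 CPM in ScxWT (SD, n = 4 each) and was not called. The aligned parts of the H2-K1 and H2-D1 transcripts were 92.3% identical, and 8.11% and 14.3% of their 50-base words occur in other genes. Their summed level averaged 215 ± 8.16 CPM in ScxKO and 195 ± 14.98 CPM in ScxWT (SD, n = 4 each), with a two-sided exact permutation p of 0.114.

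Psmb9 encodes a catalytic subunit of the immunoproteasome. It had 8, 10, 4 and 17 counts in ScxKO 2, 3, 4 and 5, against 21, 24, 22 and 15 counts in ScxWT 2, 3, 5 and 6. Those are 0.405, 0.468, 0.232 and 0.765 CPM in ScxKO 2, 3, 4 and 5, against 0.909, 1.28, 0.885 and 0.655 CPM in ScxWT 2, 3, 5 and 6. The groups overlapped through ScxKO 5 and ScxWT 6. The log2 change was -0.92 ± 0.32 (SE, edgeR adjusted p 0.0398), and the call was lost without ScxKO 2, ScxKO 3, ScxKO 4, ScxWT 2 or ScxWT 3, at adjusted p-values of 0.0962, 0.0820, 0.112, 0.0749 and 0.103. Its exons overlap those of Tap1 on the opposite strand over 212 bases. Psmb8, another such subunit, and the transporter genes Tap1 and Tap2 had log2 changes of -0.36, -0.12 and 0.01 and were not called, although Tap2 had an edgeR adjusted p of 0.0415 at a log2 change of 0.15 without ScxWT 5.

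Cxcl10, a chemokine that draws T cells, had 1.47, 3.13, 1.63 and 0.765 CPM in ScxKO 2, 3, 4 and 5, against 0.823, 0.910, 0.362 and 0.787 CPM in ScxWT 2, 3, 5 and 6. ScxKO 5 fell among the ScxWT libraries. The log2 change of 1.30 ± 0.38 (SE, edgeR adjusted p 0.0175) was 0.83 without ScxKO 3, where the adjusted p was 0.0770.

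Levels can be set beside each other only per length, taken here as all annotated exons of a gene merged. This is rough, since the count table takes in reads unevenly by gene and merged exons can exceed a single transcript. For H2-K1 the merged exons held 2938 bases and the longest transcript 1874, while for Ifit3 both held 1745. The mean in the authors' deposited table was 4.57 times the mean count for H2-D1, 2.13 times for B2m and 2.08 times for Ifit3, but 1.38 times for H2-K1 and 1.33 times for Ifi27. In CPM per kilobase B2m led the list at 440 in ScxKO and 385 in ScxWT. Ifit3 reached 70.3 in ScxKO and 29.0 in ScxWT, Ifi27 70.3 in ScxKO and 69.5 in ScxWT, and H2-K1 51.6 in ScxKO and 44.9 in ScxWT. By merged exon length Ifit3 was close to Ifi27 in ScxKO and below both Ifi27 and H2-K1 in ScxWT, an order that transcript length could change. H2-D1 had 24.4 in ScxKO and 24.6 in ScxWT, below all of these. Over all libraries, the authors' deposited table gives H2-D1 a mean normalized count per kilobase of 2385, against 2159 for Ifit3, 1967 for Ifi27 and 1409 for H2-K1, so the order below B2m depends on the table. The lowest in the counts were Mx1 at 0.0819 CPM per kilobase in ScxKO and 0.0577 in ScxWT, and Oas1a at 0.0534 in ScxKO and 0.0936 in ScxWT. The median size of the log2 change was 0.51 over the 16 called genes of the list and 0.31 over all called genes.

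ScxKO 3 stood out over this list. It was the highest of the 8 libraries in 16 of the 40 tested genes (40%), against 10.5% of all tested genes. It exceeded the mean of the other ScxKO libraries at least 1.5-fold in 10 of the 40 (25.0%), against 0.830% of all tested genes. Those 10 were Cxcl10, Gbp3, Ifi203, Ifit1, Ifit3b, Igtp, Iigp1, Mx2, Rsad2 and Usp18. At least 2-fold it did so in 6 of the 40 (15%), against 0.145% of all tested genes. The ratio was 4.65 for Rsad2, 3.39 for Mx2, 2.53 for Ifit1, 2.44 for Cxcl10, 2.21 for Ifi203 and 2.07 for Iigp1. By contrast it was no higher than ScxKO 5 in Ifit3 or Ifi207, and it was the lowest ScxKO library in B2m, H2-K1 and Bst2. Without ScxKO 3 the log2 changes of B2m and H2-K1 were 0.21 and 0.23, against 0.19 and 0.20 with it.

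ScxWT 3 was the highest of its group in 22 of the 40 genes (55%), against 24.7% of all tested genes. ScxKO 3 was the highest of its own group in 20 (50%), against 26.3%. Both held at once for 14 of the 40 (35.0%), against 8.50% of all tested genes. At the other end, ScxKO 4 was the lowest of its group in 20 (50%, against 25.8% of all tested genes) and ScxWT 6 in 21 (52.5%, against 22.9%). The labels do not say that a number marks a shared animal, culture or batch, and the part of any of these in the pattern was not tested.

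**Figure D3:**
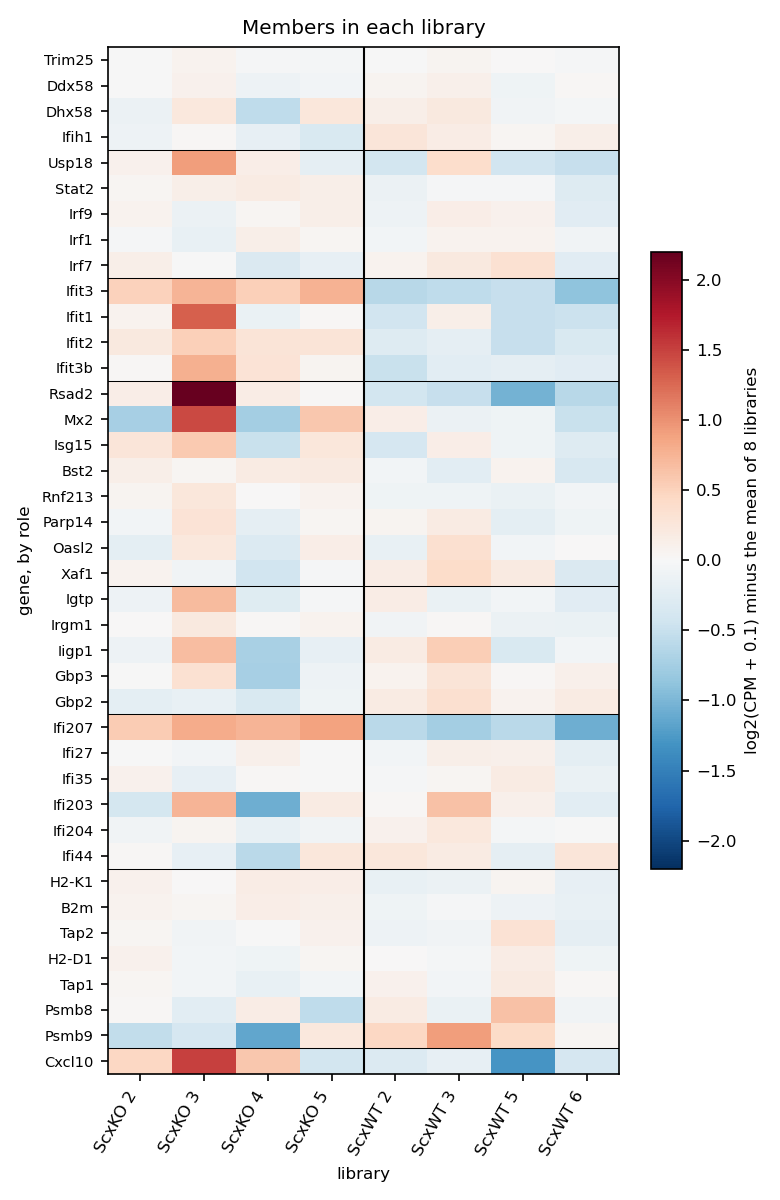
Level of each tested gene in each library as log2(CPM + 0.1) minus its mean over the 8 libraries, red above and blue below, with genes in rows by role and ScxKO columns left of ScxWT columns. Ifit3 and Ifi207 are red across all ScxKO columns, while Rsad2, Ifit1, Mx2 and Cxcl10 are deepest in the ScxKO 3 column.

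**Figure D4:**
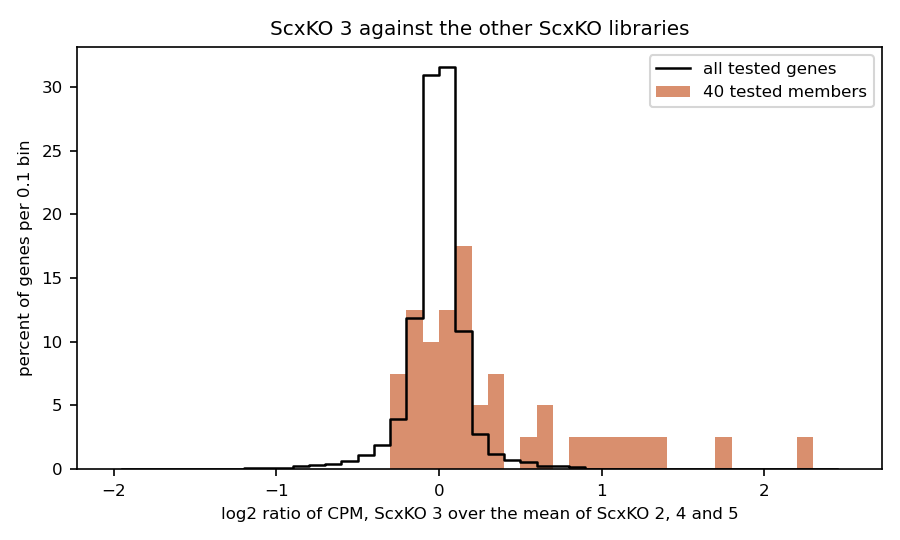
Distribution of the log2 ratio of CPM in ScxKO 3 over the mean of ScxKO 2, 4 and 5, as the percent of genes per bin of 0.1, for the 40 tested genes of the list (filled) and all tested genes (line). All tested genes cluster around 0, and the genes of the list reach out to the right, where 6 of the 40 lie at a ratio of at least 2.

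Most marker genes of leukocytes were near or at 0. The highest was Cd14, a lipopolysaccharide co-receptor of monocytes, with 14.2 to 16.1 CPM in ScxKO and 13.4 to 15.04 CPM in ScxWT, the largest share of the list's sum, and not called. Of 14 macrophage and leukocyte markers 4 had enough counts to test, and 2 of those were higher in ScxKO, beside 14% of all tested genes. Cd68 had a log2 change of 0.59 (edgeR adjusted p 0.00485) and Csf1r one of 0.70 (adjusted p 0.0139). Summed over the list, the markers gave 23.5 to 27.0 CPM in ScxKO and 20.2 to 22.9 CPM in ScxWT, and 24.2 CPM in ScxKO 3. The pan-leukocyte marker Ptprc had at most 2 counts in a ScxKO library and at most 1 in a ScxWT library. Cd3e and Siglech, which mark T cells and plasmacytoid dendritic cells, were at 0 counts in all libraries. Endothelial markers summed to 49.5 to 54.1 CPM in ScxKO and 68.3 to 86.4 CPM in ScxWT. Most of that sum was Tek, at a mean of 46.6 CPM in ScxKO and 74.3 CPM in ScxWT. Tek was lower in ScxKO, Kdr was higher, and Cdh5 was not called. Pecam1 had at most 5 counts in a ScxKO library and at most 9 in a ScxWT library. Keratinocyte markers summed to 3.24 to 4.14 CPM in ScxKO and 2.53 to 3.80 CPM in ScxWT, most of it Krt10. Of these 4 markers only Krt10 had enough counts to test, and it was not called (edgeR adjusted p 0.0909). The part of other cells in the changes of the interferon genes was not tested.

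Of 132 further pathway genes, 90 had enough counts and were tested, and 8 (8.89%) were higher and 7 (7.78%) lower in ScxKO, beside 14% and 14.5% of all tested genes. Without ScxWT 5 the counts were 15 and 9, beside 18.3% and 17.5% of all genes tested in that fit. Without ScxKO 3 they were 7 and 7, beside 12.1% and 12%. No ligand could be tested, since 9 of 10 interferon genes had 0 counts in all libraries and Ifnb1 had 1 count in each of ScxKO 3 and ScxKO 5. As far as counting error goes, 0 counts allow up to 3 counts, or 0.119 to 0.173 CPM by library, here without TMM factors. A count of 0 can also come from how reads were assigned, since Trex1 had 0 counts in all libraries and a mean normalized count of 356 in the authors' deposited table.

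Of 19 tested receptors and signal carriers 3 (15.8%) were higher and 3 (15.8%) lower. These shares were near the 14% and 14.5% of all tested genes. The log2 changes ran from -0.51 to 0.23. The lowest value was that of Socs1, a feedback inhibitor of the receptor kinases, which was not called (edgeR adjusted p 0.0702, and 0.0455 without ScxKO 3). The type I receptor chains Ifnar1 and Ifnar2 had log2 changes of -0.04 and -0.06 and were not called. Ifngr1, the ligand-binding chain for interferon gamma, averaged 61.8 ± 3.03 CPM in ScxKO and 74.0 ± 2.01 CPM in ScxWT (SD, n = 4 each), a log2 change of -0.26 (edgeR adjusted p 0.000561). Its partner chain Ifngr2 was higher, at a log2 change of 0.15 (adjusted p 0.0163), a call that was lost without ScxKO 5 (adjusted p 0.0600) and without ScxWT 2 (adjusted p 0.0614). The kinase Tyk2 rose by 0.23 on that scale (adjusted p 0.00831), and Jak1 had a log2 change of -0.09 (adjusted p 0.0844) although the groups did not overlap. Irf3, a factor that switches on interferon genes, had a log2 change of -0.10 and was not called. Stat3, best known downstream of interleukin receptors, rose by 0.17 (adjusted p 0.00901), and Il10rb, a receptor chain that interferon lambda shares with other cytokines, fell by 0.21 (adjusted p 0.00327), both on the log2 scale.

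In nucleic acid sensing 1 of 14 tested genes (7.14%) was higher and 2 (14.3%) were lower, beside 14% and 14.5% of all tested genes. Myd88, the adaptor of Toll-like receptors, had a log2 change of 0.28 (edgeR adjusted p 0.000887). Samhd1, which depletes nucleotides, had -0.28 (adjusted p 0.000419), and Mb21d1, which encodes the DNA sensor cGAS, had -0.33 (adjusted p 0.0360). The call of Mb21d1 was lost without ScxKO 2, ScxKO 3, ScxWT 2 or ScxWT 6, at edgeR adjusted p-values of 0.116, 0.0893, 0.0885 and 0.0876. Of 36 other interferon-stimulated genes 4 (11.1%) were higher and 2 (5.56%) lower, both under those shares of all tested genes. Those with the smallest p were Nampt of the NAD salvage pathway at 0.39, Slfn9 of the Schlafen family at -0.83, the lysosomal thiol reductase Ifi30 at 0.20 and the antiviral factor Samd9l at -0.33 on the log2 scale, with edgeR adjusted p-values of 0.000242, 0.000341, 0.00342 and 0.00727. None of 17 tested further class I genes and none of 4 tested class II genes was called, beside 28.5% of all tested genes in either direction.

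Promoter letters were counted over the whole list and over all genes. RefSeq windows were at hand for 33 of the 42 genes. The ISRE core was found in 18 of the 33 (54.5%), against 3.99% of all 27025 genes with a window and 3.62% of the 10286 tested genes with one. The GAS letters TTCNNNGAA were found in 7 of the 33 (21.2%), against 9.55% of all genes. Genes with the ISRE core were 10 of the 13 that were higher in ScxKO, 2 of the 3 that were lower, and 5 of the 16 matched genes that were not called. Of the 7 matched genes that exceeded the other ScxKO libraries at least 1.5-fold in ScxKO 3, all 7 held the core, and of the other 25 tested genes with a window 10 did (40%). A match is a description of letters and not of binding.

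A further 3 stretches are printed to show the core in genes with different calls. They belong to Isg15 (chr4:156200851-156200920, minus strand), which was not called, Gbp2 (chr3:142620574-142620643, plus strand), which fell, and Rsad2 (chr12:26456533-26456602, minus strand), which rose, all from RefSeq on GRCm38.p6 and with core letters in capitals.
Isg15: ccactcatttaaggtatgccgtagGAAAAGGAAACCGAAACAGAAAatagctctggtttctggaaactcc
Gbp2: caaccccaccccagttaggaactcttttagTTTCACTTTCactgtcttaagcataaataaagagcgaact
Rsad2: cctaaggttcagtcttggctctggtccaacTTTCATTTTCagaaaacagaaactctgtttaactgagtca
Isg15 holds 3 overlapping cores, and Gbp2 and Rsad2 hold 1 each on the opposite strand. The letters of the core were not in the windows of Rnf213 and H2-K1, which were both called higher.

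**Figure D5:**
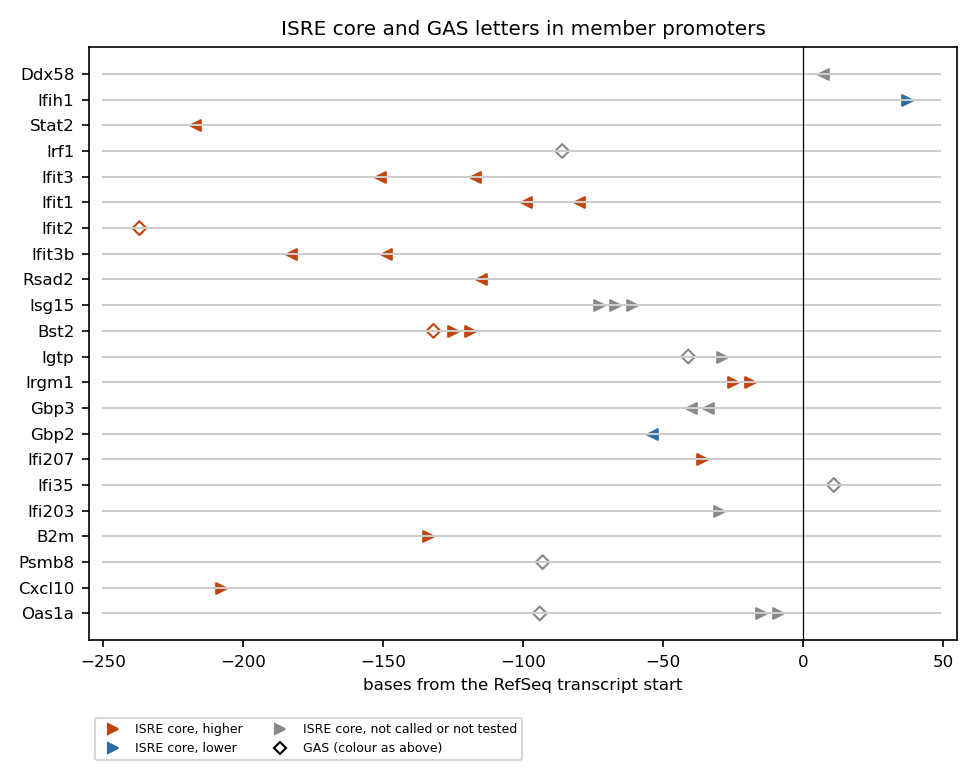
Position of ISRE core letters (triangles, pointing right where the motif lies on the gene's strand and left where it lies on the other) and GAS letters (diamonds) in bases from the RefSeq transcript start at 0, for genes of the list with a match. Colours give the call of ScxKO against ScxWT. Cores lie in genes that were higher, lower and not called.

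In the authors' deposited table of the same comparison, 11 of the 42 genes were higher and 2 lower in ScxKO at an adjusted p under 0.05, beside 15.1% and 14.1% of its 14511 genes. Its adjusted p was 0.174 for Ifit1, 0.154 for Bst2 and 0.468 for Psmb9 in the authors' deposited table. The sign of the change was the same there for each of the 3743 genes in both tables that were called here.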

How the data were processed

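RNA of 8 libraries, 4 ScxKO and 4 ScxWT by the genotype in the labels, was extracted with a miRNeasy Micro kit and DNase I and prepared by Illumina protocols, per the labels' protocols. STAR, DESeq2 and FastQC and the build mm10 are named in the submitters' processing notes. Their versions, the counting program, its annotation and its strand setting were not given in the sources used here, so counts of near copies and of genes overlapping on opposite strands are uncertain. The authors deposited raw whole-number counts for each gene symbol, on which all tests were run. Rows of reads in no feature (7.44% to 8.67% of the counts) and of ambiguous reads (0.490% to 0.567%) were left out. The authors' deposited table of ScxKO against ScxWT holds normalized mean counts (a signal), log2 fold changes, standard errors and test statistics (scores) and p-values, per the file headers. The median gene had a mean there of 1.26 times its mean in the count table, with large differences between genes, so it was made from other counts, and it was used only beside the tests here.

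Tests used edgeR 4.0.16 in R 4.3.3 with filterByExpr (minimum count 10, total 15), TMM scaling, a quasi-likelihood fit with group as its only term, and Benjamini-Hochberg adjustment over all tested genes at 0.05. Log2 changes are ScxKO over ScxWT. The standard error is the log2 change over the square root of F. Levels are CPM with TMM factors, except the limits for a count of 0, which were scaled by gene counts alone. The common biological coefficient of variation was 5.50%. Limits for a count of 0 cover counting error alone, because reads that carry no molecular identifier need not come from separate molecules. No pair of libraries of a group was closer than sampling noise. On counts simulated for 13058 genes the fit recovered 65.7% of 67 genes changed 1.25-fold, 86.4% of 66 at 1.5-fold and 95.5% of 66 at 2-fold, with 5.20% false among its calls. Symbols were placed on GENCODE mouse release M21 (GRCm38) for 24490 of 24982 genes, and transcripts were compared in 50-base words. Protein sequences were not used here, so near copies were compared by transcript.

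Tried as alternatives were scaling by RLE or upper quartiles, a filter of none or of 5 CPM in 4 libraries, tests by DESeq2 1.42.0 and by voom in limma 3.58.1, each library left out, ScxWT 5 and ScxKO 4 left out together, the shared numbers with and without a block, offsets for GC content and length, and adjusted p of 0.01 and 0.1. The genes, lists and naming rule were chosen with earlier results of these data known. Values in each library are given for called genes, those whose groups do not overlap and a few others chosen after their values were seen. From each further pathway list up to 4 called genes with the smallest p are named, with fixed receptors and signal carriers. Some genes named by that rule or in the marker lists are not reported here and are included in all counts.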

Additional observations from a re-analysis of the deposited data

Results flagged for a closer look

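In 10 of 116 groups of 4 libraries 1 library lay far from the other 3, with a gap above Dixon's 95% critical value, which chance alone gives in about 1 group in 20. Of these, 3 concerned ScxKO 3. Rsad2 reached 5.99 CPM there, while the other ScxKO libraries had 1.21 to 1.34 CPM. Ifit1 was at 23.1 CPM, against 8.24 to 9.72 CPM. Jak1, outside the list of 42 genes, was at 428 CPM, against 406 to 407 CPM.

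In ScxWT 3 Ifit1 reached 10.01 CPM, while the other ScxWT libraries had 6.40 to 6.84 CPM, and Usp18 was at 2.68 CPM, against 1.40 to 1.52 CPM. The remaining 5 were pathway genes outside the list. Il10rb was low in ScxKO 5 at 40.3 CPM, below 42.7 to 43.1 CPM in its group, and low in ScxWT 6 at 46.8 CPM, below 49.3 to 49.8 CPM in its group. Nampt was low in ScxKO 2 at 68.9 CPM, against 80.5 to 81.0 CPM. In ScxWT 5 Samd9l was low at 35.7 CPM, against 45.97 to 48.0 CPM, and Stat3 was high at 235 CPM, against 207 to 211 CPM.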

How the results depend on the processing

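Of the 16 called genes of the list, 7 kept their call in every alternative tried: Ifit2, Ifit3, Ifit3b, Rnf213, Gbp2, Ifi207 and B2m. Of the 24 genes not called, 5 were called in at least 1 alternative (Usp18, Isg15, Ifi27, Ifi204 and Tap2). Ifi27 changed sign, with a log2 change of -0.11 and an adjusted p of 0.0335 under the replicate block with GC content and length offsets.

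At an adjusted p of 0.01 the list had 7 higher and 1 lower, the further pathway genes 5 higher, and all genes 1191 higher and 1143 lower. At 0.1 the further pathway genes had 11 lower, beside 2442 lower over all genes. Over all genes, with 1842 higher and 1902 lower as reported, GC content and length offsets gave 2983 higher and 2058 lower and upper-quartile scaling 1539 and 2288, with 13 higher and 3 lower and then 11 higher and 3 lower in the list. Left out one at a time, libraries gave 10 to 14 higher and 2 to 4 lower in the list, 7 to 15 and 5 to 9 among the further pathway genes, 1447 to 2409 and 1427 to 2310 over all genes, and -6.25 to -5.82 for the log2 change of Scx. Leaving out ScxWT 5 with ScxKO 4 gave 13 further pathway genes higher, beside 2119 of all 13134 genes tested in that fit. The cause was not tested.

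Numbers 2, 3 and 5 occur in both groups, and the deviations of same-numbered libraries correlated at -0.06, 0.16 and 0.06. Only number 3 was over 0.1, and not every library correlated best with its own number, so no pairing was assumed. Over the same 6 libraries the list had 11 higher and 3 lower with the replicate block and 7 higher and 1 lower without it, and all genes 1585 higher and 1616 lower with it and 1289 higher and 1239 lower without it. Without the block the further pathway genes had 4 higher and 4 lower. The replicate block with offsets gave 13 higher and 4 lower in the list and 13 higher among the further pathway genes. Over all genes it gave 2881 higher and 1854 lower.

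Depth limits Mx1 and Oas1a, which did not pass the filter, and Psmb9, Rsad2, Mx2 and Cxcl10, which rested on few counts.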

Other observations

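Of the 19 tested genes that exceeded the mean of the other ScxKO libraries at least 2-fold in ScxKO 3, 13 lie outside the list, and those named here were chosen after their values were seen. Cmpk2, an interferon-stimulated nucleotide kinase, had 0.658, 1.73, 0.464 and 0.675 CPM in ScxKO 2, 3, 4 and 5, against 0.866, 0.642, 0.282 and 0.918 CPM in ScxWT 2, 3, 5 and 6, a ratio of 2.89 for ScxKO 3 over the mean of the other ScxKO libraries. Hsd3b6, of steroid synthesis, had a ratio of 3.47. Each of the other 11 had at most 24 counts in ScxKO 3.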
